A study of Mus musculus with 40 samples.

Results

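The shared calorie restriction response is the set of liver genes whose transcript level changed in the same direction on calorie restriction in males and females and in both genotypes of this study. RNA was sequenced from the livers of 40 C57BL/6NJ mice that were wild type (WT) or homozygous for an allele of Ghr, the growth hormone receptor gene, that lacks exon 3 (d3/d3, here d3). All 8 combinations of genotype, sex and diet held 5 mice each, and the diets were ad libitum feeding (AL) and 40% calorie restriction (CR). All pups stayed with AL-fed mothers until weaning at 30 days, and the diets then ran for 30 days. The labels put death at about 2 months, whereas their extraction protocol gives an age of 28 to 34 days, so the age at collection is uncertain. The d3 cohort came from frozen sperm of d3/d3 males and oocytes of C57BL/6NJ females, the deletion is in the germ line, and the labels name no pooling of animals. They give neither the hour of feeding nor the hour of collection for any group.

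Genes with a mean of at least 10 normalized counts over the 40 livers were tested, which left 13776. A normalized count is the number of reads of a gene divided by a factor for its library. The diet change of a gene was taken in each of 4 strata (WT males, d3 males, WT females and d3 females) as the mean log2(normalized count + 1) of the 5 CR livers minus that of the 5 AL livers. A gene belongs to the shared response when its diet change passed an adjusted p of 0.05 with the same sign in all 4 strata. That rule left 525 of the 13776 genes, of which 168 were higher on CR (1.22% of the genes tested) and 357 were lower (2.59%). Gene lists were read from counts of their members called in the mean of the 4 diet changes and in all 4 strata.

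As background, calorie restriction lowers the energy supply without malnutrition, and in rodents it usually also turns feeding into a short daily meal followed by a long fast. The liver clock is a loop in which the BMAL1 protein (gene Arntl), paired with CLOCK or NPAS2, switches on Per, Cry and other repressors that then switch it off. REV-ERB and ROR receptors set the rhythm of Arntl itself, and D-box factors such as DBP carry the rhythm to metabolic genes. Insulin and low sterol act on the liver through SREBP proteins, which drive fatty acid and cholesterol synthesis and which INSIG proteins hold in the endoplasmic reticulum. Long fasting instead engages PPARA, which drives fat oxidation and ketone production.

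On CR the D-box factor Dbp, the repressors Per3 and Ciart, and the lipid synthesis genes Srebf1 and Fasn were higher in every stratum. The clock activators Npas2 and Arntl, the SREBP anchor Insig2 and several major urinary protein genes were lower in every stratum. The mean of the 4 diet changes, a weaker criterion, called 3192 genes higher (23.2%) and 3109 lower (22.6%). Shared genes thus made up 525 of 6301 genes called in the mean. The median mean change of the shared higher genes was 0.97 (range 0.26 to 5.87, log2) and that of the shared lower genes was -0.75 (range -8.30 to -0.24). Over all genes tested the median was 0.04. The mean change was at least 2-fold for 81 shared higher and 112 shared lower genes, and at least 4-fold for 31 and 33. The AL and CR livers did not overlap in any of the 4 strata for 69 genes higher on CR (0.501% of those tested) and 164 lower (1.19%).

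Ghr, the gene that the d3 allele alters, had 5592 to 19536 normalized counts in the 20 AL livers (median 14075) and 8761 to 20904 in the 20 CR livers (median 13155). Its mean diet change was 0.00 ± 0.10 (log2 ± SE, adjusted p = 0.98), and the diets overlapped. A gene-level count cannot show whether exon 3 is present, so it does not check the genotype labels.

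Recovered library sizes ran from 21132490 to 44195300 reads, with a median of 36347580. Skeletal muscle transcripts set 17 libraries apart, 10 of CR and 7 of AL livers. The mean log2 level of 15 muscle markers ran from 0.48 to 12.64 in AL livers (median 2.49) and from 0.94 to 16.30 in CR livers (median 6.66). Of these markers 1 passed the test in the mean contrast. Without those 17 libraries the shared response held 51 higher and 83 lower of 13776 genes, with 2 livers left in each d3 CR group. With so few shared genes, 0 shared members of a list in that fit is not a result about that list. Of the 525 genes, 524 kept their sign in all 4 strata. With the muscle level as a covariate 513 of the 525 were again shared. Running numbers in the sample titles separate AL from CR among d3 mice, so for d3 diet and number cannot be told apart. Among WT mice the numbers 34 to 60 interleave, and in those 8 libraries (2 a group) 525 of 525 shared genes had the same sign. The libraries of all these checks also helped to choose the genes, so a kept sign or call is not independent support.

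How far genes called in 3 strata were also called in the remaining stratum was described next. Genes called higher in d3 males, WT females and d3 females were called higher in WT males in 168 of 180 cases (93.3%), while WT males called 1390 of all genes higher (10.1%). The corresponding count in d3 males was 168 of 226 (74.3%), against 1240 of all genes (9.00%). WT females called 168 of 377 (44.6%), against 628 of all genes (4.56%), and d3 females 168 of 244 (68.9%), against 1147 (8.33%). Among genes called lower in the other 3 strata, WT males called 357 of 379 (94.2%), d3 males 357 of 446 (80.0%), WT females 357 of 526 (67.9%) and d3 females 357 of 522 (68.4%). Those strata called 1571 (11.4%), 1446 (10.5%), 980 (7.11%) and 1316 (9.55%) of all genes lower. In none of the 8 sets was a gene called in the opposite direction in the stratum left aside. The share with the same sign there, called or not, was 92.6% to 100%. The 4 strata share no liver but share the estimate of the spread. Each count of 168 or 357 is the shared set itself, so the percentages differ only through the number called in the other 3 strata. They describe the shared set and are not an independent replication. WT females called the fewest genes of the 4 strata in either direction.

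**Figure D1:**
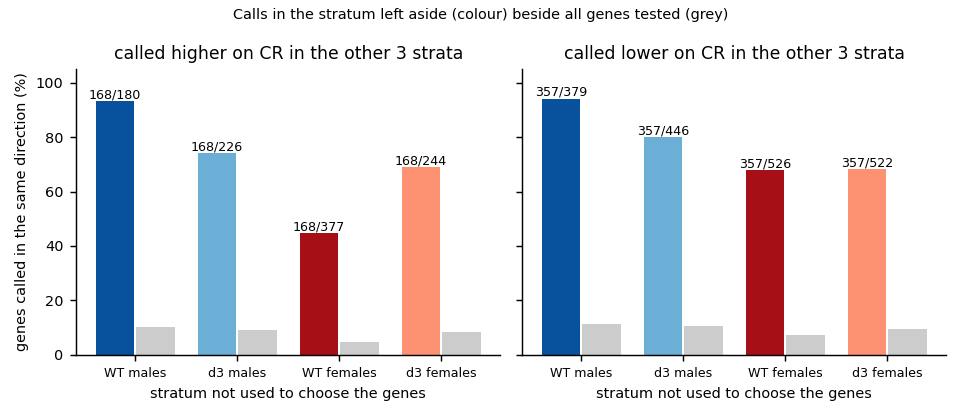
Share of genes called in the same direction in the stratum not used to choose them (coloured bars, with counts) beside the share of all 13776 genes called in that stratum and direction (grey bars). Every coloured bar exceeds its grey bar, from 44.6% against 4.56% in WT females to 94.2% against 11.4% in WT males.

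The clock genes held the largest increase of the shared response (Dbp) and several of its largest decreases. Of 7 activators and members of the ROR loop, 4 were lower and 3 higher in the mean contrast, and Npas2, Arntl and Clock were lower and Nr1d2 was higher in all 4 strata. Of 8 repressors, 7 were higher and 1 was lower in the mean contrast, and Per3, Ciart, Bhlhe41, Per2 and Bhlhe40 were higher in all 4 strata. Of 4 output factors, Dbp and Tef were higher and Nfil3 was lower in all 4 strata. Without the muscle-rich libraries the calls in the mean contrast were the same in number, and 3 activators lower, 1 higher, 2 repressors and all 3 output factors were called in every stratum. With no hour of collection in the labels, a change in level and a shift in timing cannot be told apart. The same limit holds for the lipid and other metabolic genes below, for which the hour of feeding is missing too.

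Dbp, a D-box transcription factor on chromosome 7 (45705088 to 45710203, GRCm38), ran from 28.8 to 1138 normalized counts in the 20 AL livers (median 77.2) and from 5465 to 8632 in the 20 CR livers (median 6776). No AL liver reached the lowest CR liver. Its mean diet change was 5.87 ± 0.25 (log2 ± SE, adjusted p = 6.04e-20), with 6.42 in WT males, 3.48 in d3 males, 7.06 in WT females and 6.51 in d3 females. The d3 AL males held the high AL values, at 806 ± 420 normalized counts (SD, n = 5), whereas the other AL groups averaged 49.2 to 122. Tef, a factor of the same family, went from 422 to 3164 on AL (median 1233) and from 2205 to 6378 on CR (median 4408), and its mean change was 1.71 ± 0.11. Its AL and CR livers were separate within each stratum but overlapped across them. Nfil3, a repressor that binds the same D-box sites, was opposite, with 1194 to 3408 normalized counts on AL (median 1550) and 109.8 to 379 on CR (median 245). All 20 CR livers lay below all AL livers, and the mean change was -2.80 ± 0.11 (adjusted p = 7.41e-21), within -2.94 and -2.61 in the 4 strata. Hlf, the remaining output factor, rose in the mean contrast (0.41 ± 0.07) but was not shared.

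Among the repressors, Per3 had 60.1 to 453 normalized counts on AL (median 124) and 1944 to 3756 on CR (median 2573). Its diets did not overlap, and of all genes tested it had the smallest adjusted p in the mean contrast (3.81e-24, mean change 4.19 ± 0.12). Ciart, a repressor of the BMAL1 complex, ran from 20.7 to 587 on AL (median 59.96) and from 403 to 1875 on CR (median 1182). It overlapped across the strata, because 1 d3 AL male had 587, but not within any stratum, and its mean change was 3.66 ± 0.20. Per2, a partner of the CRY proteins in repression, ran from 169 to 747 on AL (median 416) and from 986 to 2357 on CR (median 1668), again without overlap, and its change was 2.05 ± 0.14. Bhlhe41 (DEC2), which competes for E-box sites, changed by 3.18 ± 0.25 from a low AL median of 26.9, with larger changes in females (4.40 and 3.78) than in males (2.95 and 1.60). Per1 and Cry2 rose in the mean contrast by 1.28 ± 0.16 and 0.79 ± 0.07 but were not called in all 4 strata. Cry1, the partner of Cry2, was the exception among the repressors and fell by 1.26 ± 0.11, with changes from -0.28 in d3 males to -1.90 in d3 females.

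The activators were lower. Npas2 had 88.5 to 648 normalized counts on AL (median 285) and 0 to 26.5 on CR (median 7.61), and the diets did not overlap. The mean change was -5.05 ± 0.23, and the 4 strata lay between -5.44 and -4.80. Arntl, which encodes BMAL1, had 617 to 1316 on AL (median 1040.1) and 9.32 to 147.8 on CR (median 38.7), without overlap, and changed by -4.82 ± 0.18. Clock changed less, by -1.76 ± 0.06, from a median of 2379 to one of 698, and its diets did not overlap either. Nr1d2 (REV-ERB beta), a repressor of Arntl, rose from a median of 1210 to 4177, by 1.66 ± 0.09. Nr1d1 (REV-ERB alpha) rose by 1.72 ± 0.21 in the mean contrast but was not shared, because its change was 0.07 in d3 males against 1.48, 3.03 and 2.30 in the other strata. Rora, an activator of Arntl, fell by 0.31 ± 0.06 in the mean contrast and was not shared.

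Promoter windows from RefSeq (GRCm38.p6, 250 bases before the transcription start) are printed for the 5 shared clock genes whose window holds a clock motif, because clock genes were among the largest changes in both directions. Capitals mark the E-box CACGTG (Tef, Bhlhe41, Ciart), the D-box TTATGTAA (Per3) and the core TAGGTCA of the ROR and REV-ERB element, which reads TGACCTA on the printed strand of Nfil3. The windows are chr15:81802423-81802672 on the plus strand for Tef, and on the minus strand chr4:151044666-151044915 for Per3, chr6:145865421-145865670 for Bhlhe41, chr3:95882229-95882478 for Ciart and chr13:52981040-52981289 for Nfil3.
Tef: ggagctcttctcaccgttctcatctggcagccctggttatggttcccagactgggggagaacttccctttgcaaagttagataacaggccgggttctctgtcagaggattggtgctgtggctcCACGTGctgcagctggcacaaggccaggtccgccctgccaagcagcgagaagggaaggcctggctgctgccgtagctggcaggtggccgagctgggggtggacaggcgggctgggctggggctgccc
Per3: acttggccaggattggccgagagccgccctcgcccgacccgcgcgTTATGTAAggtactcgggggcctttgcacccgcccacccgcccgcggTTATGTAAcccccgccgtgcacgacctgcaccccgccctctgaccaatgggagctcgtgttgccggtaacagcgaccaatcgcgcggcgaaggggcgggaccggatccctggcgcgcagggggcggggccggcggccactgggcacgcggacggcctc
Bhlhe41: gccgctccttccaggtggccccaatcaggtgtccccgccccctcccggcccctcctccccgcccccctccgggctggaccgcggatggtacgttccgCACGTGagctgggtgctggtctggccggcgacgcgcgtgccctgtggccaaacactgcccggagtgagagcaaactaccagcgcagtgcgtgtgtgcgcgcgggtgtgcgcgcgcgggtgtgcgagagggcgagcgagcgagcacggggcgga
Ciart: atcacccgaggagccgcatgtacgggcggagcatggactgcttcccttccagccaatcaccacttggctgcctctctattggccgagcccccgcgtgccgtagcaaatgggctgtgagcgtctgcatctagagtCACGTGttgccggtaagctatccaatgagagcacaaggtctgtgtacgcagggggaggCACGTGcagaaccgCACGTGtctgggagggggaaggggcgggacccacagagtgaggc
Nfil3: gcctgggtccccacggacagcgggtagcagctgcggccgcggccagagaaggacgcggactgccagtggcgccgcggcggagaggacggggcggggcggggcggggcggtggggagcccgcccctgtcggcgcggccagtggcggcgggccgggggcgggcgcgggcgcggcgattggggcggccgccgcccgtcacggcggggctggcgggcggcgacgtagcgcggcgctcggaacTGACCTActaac
The motifs begin at base -127 of Tef, at -205 and -158 of Per3, at -153 of Bhlhe41, at -116, -58 and -44 of Ciart and at -12 of Nfil3. The 4 genes with an E-box or D-box here were higher on CR and the gene with the ROR core was lower. All 5 were printed because they were shared and held a motif, so they cannot show whether motif and direction go together. A match is a run of letters and not a measured binding site.

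The same motifs were counted on both strands of windows from 250 bases before to 50 bases after the start, against the 27025 windows of the table and the 10683 genes tested that had one. Of the 16 clock genes with a window, 5 held an E-box (31.2%), against 9.53% of the genes tested and 7.24% of the table. Of the 357 shared lower genes 294 had a window (82.4%), and 14 of them held the ROR core (4.76%), against 2.05% of the genes tested and 2.64% of the table. An E-box was in 30 of the 294 (10.2%) and a D-box in 0, while 0.608% of the genes tested and 0.955% of the table held a D-box. Windows were found for 75.0% of the 168 shared higher genes and 77.6% of the genes tested. The share for the shared higher genes is too small, so the check is void for them, and the background of genes tested is incomplete to a like degree. For the CRE TGACGTCA the direction depends on the background, with 2.72% of shared lower windows, 2.93% of the genes tested and 1.88% of the table. The same holds for the ARE TGACNNNGC, at 12.9%, 14.3% and 12.5%. The other motifs were less frequent in shared lower windows than in either background. In the same order, the GRE core ACANNNTGT was in 3.40%, 4.47% and 6.90%, the SRE TCACNCCAC in 0.68%, 1.10% and 1.22%, and the FOXO site GTAAACA in 1.70%, 2.77% and 3.55%. The CARE TTGCATCA was in 0%, 0.693% and 0.929%, the HSE TTCNNGAA in 4.76%, 6.87% and 8.40%, and the CHR TTTGAA in 10.5%, 12.7% and 18.1%. The CRE and the ARE both begin with TGAC and can share bases. No difference between these shares was tested.

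Genes outside the clock lists were also among the largest increases. Whether the clock controls them was not tested. Rgs16, a GTPase activator that shortens G protein signals, had 54.1 to 2974 normalized counts on AL (median 377) and 3525 to 22680 on CR (median 12886). Its diets did not overlap, and its mean change of 4.77 ± 0.27 was made of 5.87 and 7.14 in WT and d3 males and 2.25 and 3.81 in WT and d3 females. The highest AL livers were females, although 1 d3 AL female (247.5) lay within the range of the AL males. Usp2, a deubiquitinase, rose from a median of 523 to one of 3971, by 3.06 ± 0.19, and its 20 AL livers (up to 1330) lay below its 20 CR livers (from 1732). Wee1, the kinase that delays entry into mitosis, had 43.1 to 148.5 normalized counts on AL and 247 to 1257 on CR, and rose by 2.92 ± 0.14. Upp2, a liver uridine phosphorylase, rose by 2.40 ± 0.18 and Inmt, an N-methyltransferase of indoles, by 2.03 ± 0.19, both without overlap of the diets.

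**Figure D2:**
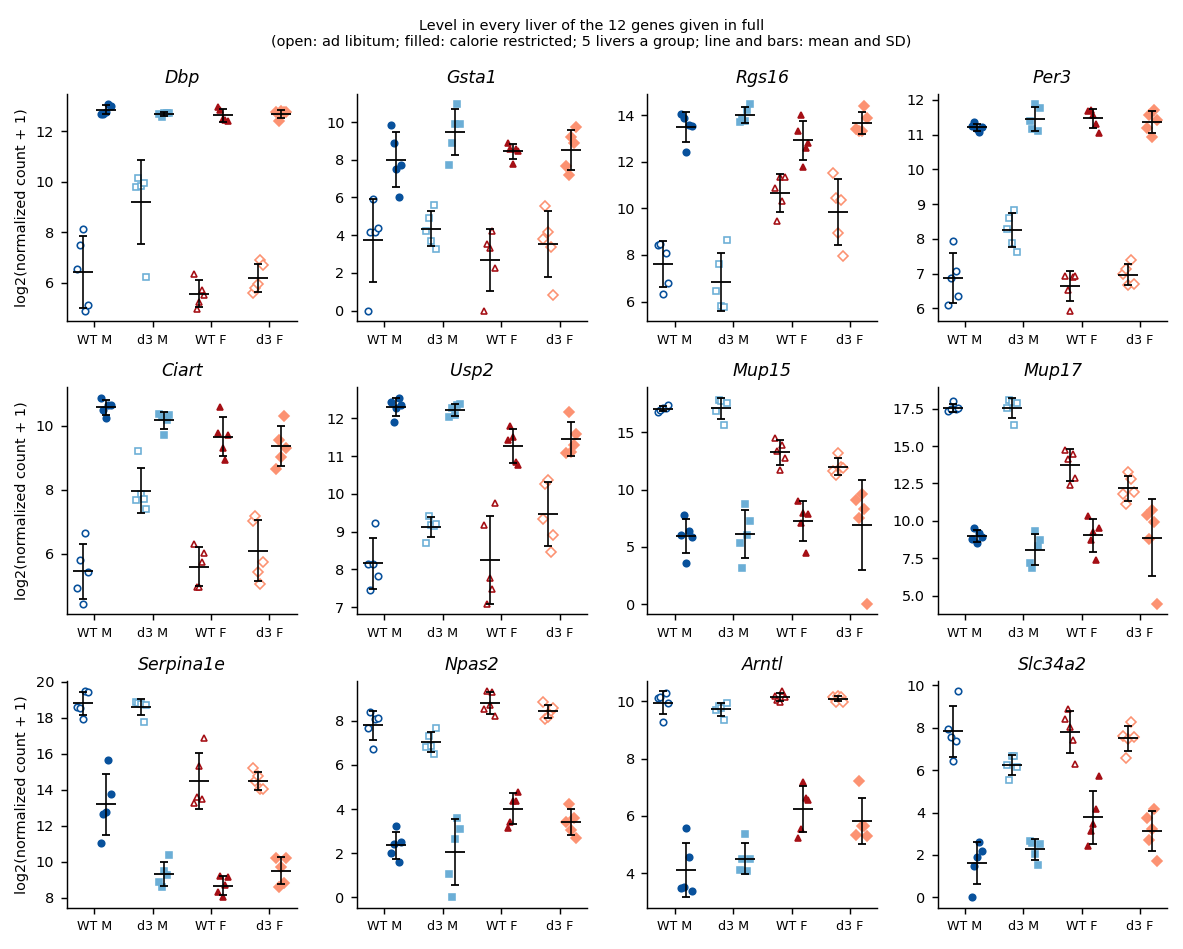
Level in every liver of 12 shared genes, the 6 per direction with the largest mean change among those with a mean of at least 100 and no overlap of the diets in any stratum, as log2(normalized count + 1), by stratum, with open symbols for AL and filled symbols for CR, and the mean and SD of 5 livers. AL and CR livers are separate within every stratum because the genes were chosen so. The size of the gap differs between strata, as for Dbp in d3 males (3.48) and Rgs16 in WT females (2.25).

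Fatty acid synthesis genes were higher on CR. All 11 measured members of the lipogenesis list were higher in the mean contrast, with a median change of 1.13, and 5 of them were shared (Thrsp, Fasn, Srebf1, Elovl6 and Acss2). Of the 11, 6 also differed in the size of the change between the sexes. Srebf1, the gene of the SREBP-1 factor, had 607 to 6170 normalized counts on AL (median 2715) and 5764 to 20402 on CR (median 9038). The diets were separate in each stratum, and the change was 2.99 and 2.49 in WT and d3 males and 1.26 and 1.46 in WT and d3 females (mean 2.05 ± 0.20). Fasn, fatty acid synthase, had 2009 to 9859 on AL (median 5582) and 9526 to 104483 on CR (median 21039), and its mean change was 2.17 ± 0.21. The CR livers spread more widely than the AL livers. Thrsp (Spot 14), which accompanies lipogenesis, rose from a median of 988 to 10149, by 3.54 ± 0.28, and Elovl6, which lengthens palmitate, from 1249.6 to 4006, by 1.67 ± 0.14. Acss2, which makes acetyl-CoA from acetate, rose by 1.07 ± 0.12. Acly, which makes acetyl-CoA from citrate, rose by 1.13 ± 0.14 in the mean contrast but had a change of 0.00 in d3 females. Without the muscle-rich libraries 10 of the 11 were higher in the mean contrast. That fit shared 0 of the 11 and 134 of all 13776 genes.

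Cholesterol synthesis genes were higher as well. All 17 measured members of the list of cholesterol synthesis and its control were higher in the mean contrast (median 1.45), all 17 had a positive change in each stratum, and 8 were shared, among them Fdps, Insig1, Fdft1, Lss and Sc5d. Fdps, which makes farnesyl diphosphate, had 422 to 7194 normalized counts on AL (median 1161) and 1546 to 12618 on CR (median 6384), and its mean change was 2.18 ± 0.28. The diets overlapped across the 20 and 20 livers and were separate within d3 males only. Idi1, which makes the isoprenoid unit dimethylallyl diphosphate and was not shared, rose in the mean contrast by 1.69 ± 0.33. Without the muscle-rich libraries all 17 were still called higher in the mean contrast (median 1.45) and 1 in all 4 strata.

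The anchors of the SREBP proteins went in opposite directions. Insig1, itself a known SREBP target, had 1357 to 9443 normalized counts on AL (median 4087) and 5917 to 19774 on CR (median 12258), and its change was 1.51 to 1.62 in the 4 strata (mean 1.57 ± 0.20). Insig2, whose liver transcript is known to fall with insulin, had 13839 to 34784 on AL (median 17839) and 1442 to 5545 on CR (median 2753). All 20 CR livers lay below all AL livers for Insig2, and its mean change was -2.82 ± 0.12 (adjusted p = 1.82e-19), with -3.31 and -3.22 in males and -2.37 and -2.39 in females. The highest Insig1 values on AL overlapped the lowest on CR.

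**Figure D3:**
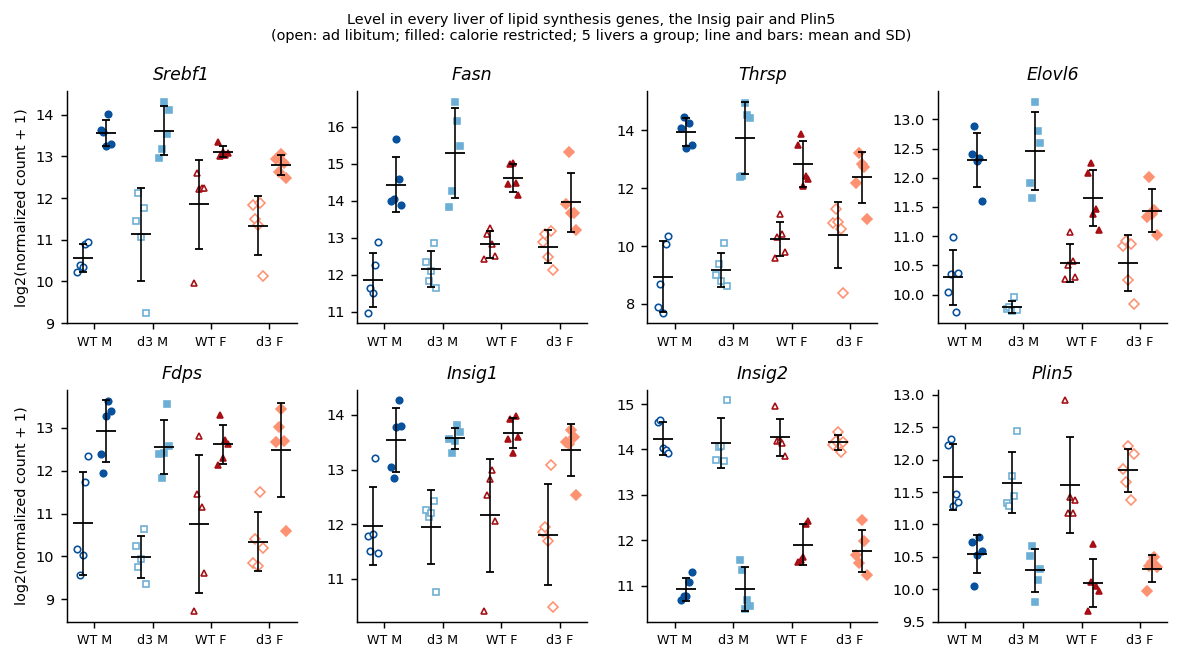
Level of genes of fatty acid synthesis (Srebf1, Fasn, Thrsp, Elovl6) and of cholesterol synthesis and its control (Fdps, Insig1, Insig2), and of the lipid droplet coat Plin5, in every liver, as log2(normalized count + 1), by stratum, with open symbols for AL and filled for CR, and the mean and SD of 5 livers. The means of the first 6 genes are higher on CR in each stratum. Insig2 and Plin5 are lower, Insig2 from a median of 17839 on AL to 2753 on CR.

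Fat oxidation genes were lower where they were called with all 40 livers. Of 21 measured PPARA targets and the gene itself, 0 were higher and 12 were lower in the mean contrast (median -0.45), and Cpt2, which returns acyl groups to CoA inside mitochondria, was the 1 shared member. Cpt2 had 5156 to 9986 normalized counts on AL (median 7398) and 2852 to 5561 on CR (median 3803), a change of -0.87 ± 0.08. Cyp4a14, a fatty acid omega-hydroxylase, fell by 1.05 ± 0.30 in the mean contrast but was not shared. With the muscle-rich libraries left out 1 of the 21 was higher, 9 were lower and 0 were shared. That fit shared 134 of all 13776 genes. In triglyceride storage and release 5 of 15 genes were higher and 6 lower in the mean contrast, against 23.2% and 22.6% of all genes. The shared members were Plin5 and Agpat2. Plin5, a lipid droplet coat that ties droplets to mitochondria, had 2304 to 7741 on AL (median 2799) and 809 to 1797 on CR (median 1303), without overlap, and its change was -1.39 ± 0.13. Agpat2, an enzyme of phosphatidic acid synthesis, changed by -0.87 ± 0.08. Dgat2, of the last step of triglyceride synthesis, rose by 0.73 ± 0.09 and Plin2, the main droplet coat, fell by 1.19 ± 0.14 in the mean contrast, and neither was shared. Sdc1, a heparan sulfate proteoglycan that clears lipoprotein remnants in liver, was among the most even genes and is given with them. Mttp, which loads lipid onto apolipoprotein B, was the 1 shared member of 11 apolipoprotein genes (-0.66 ± 0.09), while Apoe had a change of -0.08 ± 0.12. In the same libraries without the muscle-rich ones, 3 triglyceride genes were higher and 4 lower, 1 was shared higher, and 0 of either list were shared lower.

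Among carbohydrate and amino acid genes Gys2 and Sdsl were shared. Gys2, liver glycogen synthase, was shared among 13 genes of glycolysis and glycogen storage, of which 9 were higher and 1 lower in the mean contrast. It had 3708 to 6869 normalized counts on AL (median 4322) and 4788 to 16583 on CR (median 11919), a change of 1.25 ± 0.11. Of 10 genes of glucose production 2 were higher, 3 lower and 0 shared, and Pck1, which commits carbon to glucose, changed by -0.34 ± 0.18 (adjusted p = 0.122). Of 17 genes of amino acid breakdown and the urea cycle 1 was higher and 10 were lower, and Sdsl, which encodes a serine dehydratase-like protein, was shared (-1.002 ± 0.15). Of 10 genes of bile acid synthesis and transport 2 were higher, 4 lower and 0 shared. The glucocorticoid list had 1 higher and 2 lower of 12, the insulin and IGF list 1 and 4 of 13, the sirtuin and NAD list 3 and 1 of 8, and none had a shared member. Leaving out the muscle-rich libraries, 6 genes of glycolysis and glycogen storage were higher (1 shared), 6 of amino acid breakdown were lower (0 shared), and 1 glucocorticoid gene and 2 insulin and IGF genes were lower. Beside the counts with all livers, 23.2% of all genes were called higher and 22.6% lower. Of all genes 1.22% were shared higher and 2.59% shared lower, so 0 or 1 shared member is not a result about a list.

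Protein folding genes were lower. Of 12 ER chaperones 0 were higher and 9 lower in the mean contrast (median -0.65), and Hspa5, Dnajb11, Pdia4 and Calr were shared. Hspa5 (BiP), the main chaperone of the ER, had 16641 to 71788 normalized counts on AL (median 31011) and 10081 to 23865 on CR (median 17071), and its change was -0.94 ± 0.12. Its diets overlapped in part. Dnajb11, a co-chaperone of BiP, was tighter, at 2409 to 6039 on AL (median 3558) and 1367 to 2481 on CR (median 1938), a change of -0.85 ± 0.07. Pdia4, a disulfide isomerase, changed by -0.81 ± 0.12 and Calr, a lectin chaperone, by -0.64 ± 0.10. Herpud1, of ER-associated degradation, had a change of 0.39 ± 0.18 (adjusted p = 0.0686). Of 12 heat shock genes 8 were lower and 0 higher, and Hsp90aa1, the inducible cytosolic HSP90, was shared (-1.27 ± 0.16). Without the muscle-rich libraries 7 ER chaperones were lower and 1 higher, 5 heat shock genes were lower, and 0 of either list were shared. That fit shared 134 of all 13776 genes. Among 9 ATF4 targets, Atf5, a stress transcription factor, was shared at -1.59 ± 0.10, with 13487 to 28741 on AL and 4135 to 11470 on CR and no overlap. Trib3, another ATF4 target, rose by 1.33 ± 0.17 in the mean contrast but was not shared. Of the ATF4 targets 0 were shared without the muscle-rich libraries.

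One-carbon and glutathione genes split by enzyme. Of 10 genes of methionine metabolism and transsulfuration 1 was higher and 8 lower in the mean contrast (median -0.66). Gclc, the rate-limiting subunit of glutathione synthesis, was 1 of 2 shared members (-0.84 ± 0.12). Bhmt, the betaine-dependent remethylation enzyme, fell by 1.61 ± 0.19 and Mat1a, the liver methionine adenosyltransferase, by 0.88 ± 0.13 in the mean contrast, without being shared. In contrast 7 of 11 genes of the NRF2 and glutathione transferase list were higher and 3 lower. Gsta1 had 0 to 60.2 on AL (median 14.8) and 64.2 to 1967 on CR (median 420), no overlap, and a mean change of 5.04 ± 0.43. Gsta2, its close relative, rose by 2.07 ± 0.28, and since the 2 transcripts are alike, reads may be split between them by estimation. Srxn1, which repairs peroxiredoxins, was shared in the lower direction (-0.86 ± 0.09). Of 12 genes of xenobiotic receptors and P450 enzymes 3 were higher, 3 lower and 0 shared. Those counts are near the shares of all genes called higher (23.2%) and lower (22.6%). When the muscle-rich libraries were left out, 1 methionine gene and 0 genes of the NRF2 list were shared, with their calls in the mean contrast the same in number, and 4 xenobiotic genes were higher and 1 lower.

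**Figure D4:**
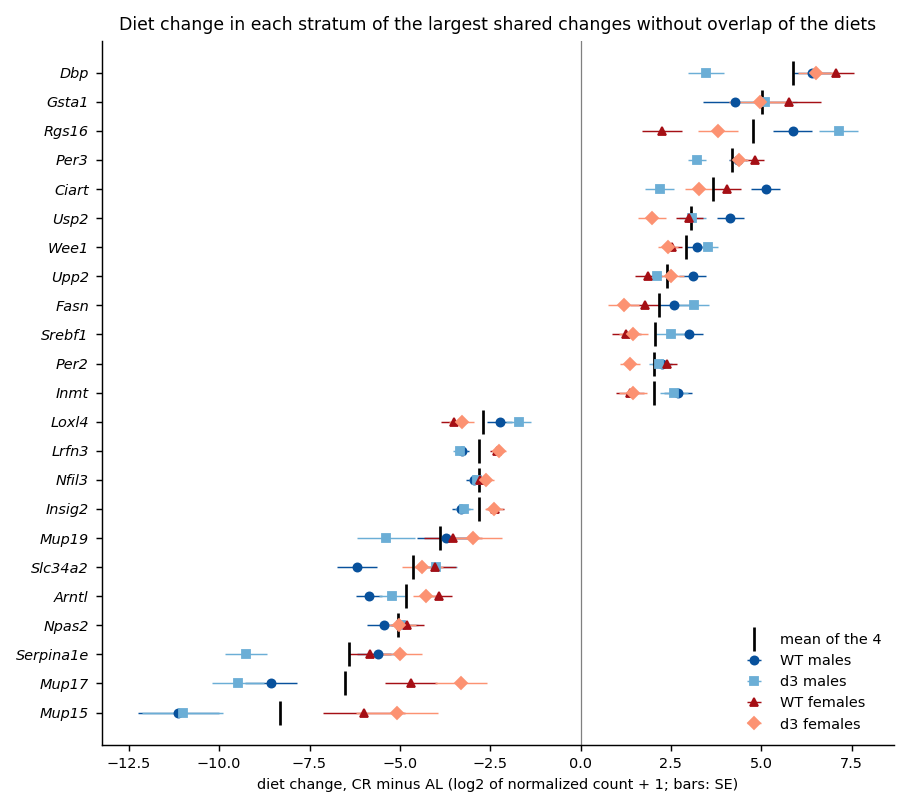
Diet change (CR minus AL, log2, with SE) in each of the 4 strata for the 12 genes with the largest increase and 11 of those with the largest decrease among shared genes with a mean of at least 100 and no overlap of the diets in any stratum. The black mark is the mean of the 4 changes. Strata nearly coincide for Nfil3 (-2.94 to -2.61) and lie apart for Rgs16 (2.25 to 7.14) and Mup17 (-9.47 to -3.32).

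Secreted liver proteins held the largest decreases. Of 21 Mup genes tested, which encode major urinary proteins, 20 were lower and 0 higher in the mean contrast and 9 were shared. Since kallisto divides reads among near-identical Mup transcripts, their sum is firmer than any member. Mup transcripts together took 9.77% to 13.9% of recovered reads in WT AL males and 1.40% to 2.15% in WT CR males, and 8.06% to 14.6% in d3 AL males and 0.452% to 1.08% in d3 CR males. In females the shares were 2.04% to 3.93% on AL and 0.5% to 0.966% on CR for WT, and 1.33% to 2.59% and 0.065% to 1.60% for d3. The diets were separate in 3 strata and overlapped in d3 females. Mup15 had 2522 to 228258 normalized counts on AL (median 36713) and 0 to 797 on CR (median 143), and its change was -11.13 and -11.01 in WT and d3 males and -5.99 and -5.08 in WT and d3 females. Mup17 had 2288 to 272564 on AL and 21.0 to 1738 on CR, a mean change of -6.52 ± 0.36. In the list of 9 Mup genes 9 were lower (median -3.21), 3 were shared, and 7 differed between the sexes in the size of the change. All 9 were lower in the mean contrast without the muscle-rich libraries too. That fit shared 0 of the 9 and 134 of all 13776 genes.

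Serpina1e, an alpha-1 antitrypsin gene of mice, had 9824 to 733614 normalized counts on AL (median 173317) and 259 to 51834 on CR (median 677). The AL and CR livers were separate in each stratum but not across them, and the mean change was -6.42 ± 0.29, with -9.26 in d3 males, -5.82 in WT females, -5.61 in WT males and -4.98 in d3 females. Its sequence is close to the other Serpina1 genes, so its level is uncertain. Of 14 acute phase genes 0 were higher and 12 lower (median -0.68), and Lbp, which presents bacterial lipopolysaccharide, was shared. Lbp had 4823 to 13148 on AL (median 6604) and 1474 to 4641 on CR (median 3442), without overlap, a change of -1.13 ± 0.12. Without the muscle-rich libraries 6 of the 14 were lower and 0 were shared, in a fit that shared 134 of all 13776 genes. Alb, the gene of albumin, had a mean change of 0.00 ± 0.20. Of 8 nutrient-sensitive liver hormones 1 was higher, 4 lower and 0 shared, while 23.2% of all genes were called higher and 22.6% lower.

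Other large shared decreases fell in membrane and matrix genes. Slc34a2, a sodium and phosphate cotransporter, had 45.9 to 845 normalized counts on AL (median 172) and 0 to 51.4 on CR (median 5.00), a change of -4.64 ± 0.28. Lrfn3, an adhesion protein with leucine-rich repeats, had 411 to 885 on AL (median 641) and 49.3 to 219.9 on CR (median 91.8), without overlap, a change of -2.80 ± 0.09. Loxl4, a lysyl oxidase of the matrix, had 62.7 to 926 on AL (median 219) and 18.5 to 55.3 on CR (median 34.4). Its changes of -3.51 and -3.29 in WT and d3 females exceeded those of -2.24 and -1.71 in males. Of 12 collagen and matrix genes 4 were higher, 1 was lower and 0 were shared. Over all genes 23.2% were called higher and 22.6% lower. Without the muscle-rich libraries 1 collagen or matrix gene was higher and 0 were lower.

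Among growth and housekeeping genes Aurka, the mitotic kinase Aurora A, was the 1 shared member of 19 cell cycle genes, of which 7 were higher and 6 lower. Aurka had 110.5 to 183 normalized counts on AL (median 140.3) and 55.1 to 87.4 on CR (median 73.5), without overlap, and its change lay between -1.09 and -0.80 in the strata. Subunits of oxidative phosphorylation were higher in 14 of 14 cases in the mean contrast, by a median of 0.31, and cytosolic ribosomal proteins in 16 of 21, by a median of 0.21, but no member of either list was shared. Of 11 ribosome biogenesis genes 1 was higher and 4 lower, and of 9 juvenile and imprinted growth genes 3 and 1. Both cold-induced RNA-binding proteins rose in the mean contrast, Rbm3 by 0.34 ± 0.08 and Cirbp by 0.39 ± 0.15. Sqstm1 (p62), an autophagy adaptor, was the 1 shared member of 11 autophagy and lysosome genes and changed by -0.64 ± 0.05, from -0.95 in WT males to -0.34 in d3 females. Of the 11, 3 were higher and 4 lower. Over all genes tested 23.2% were called higher and 22.6% lower in the mean contrast. Setting the muscle-rich libraries aside, 9 oxidative phosphorylation genes and 16 ribosomal protein genes were higher, and 3 cell cycle genes (1 shared), 2 autophagy genes (0 shared) and 1 ribosome biogenesis gene were lower.

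Interferon response and antigen presentation genes were lower where they moved. Of 12 measured 0 were higher and 6 were lower (median -0.26), and Rsad2 and Ifit1 were shared. Rsad2 (viperin), an antiviral enzyme, had 406 to 1616 normalized counts on AL (median 759) and 111 to 373 on CR (median 182), without overlap, and its change was -2.18, -2.17, -2.02 and -2.0003 in the 4 strata. Ifit1, which binds foreign RNA, changed by -1.50 ± 0.18. B2m, the light chain of class I molecules, fell by 0.33 ± 0.09 in the mean contrast only. Of the 12, 5 were lower and 1 was shared without the muscle-rich libraries.

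**Figure D5:**
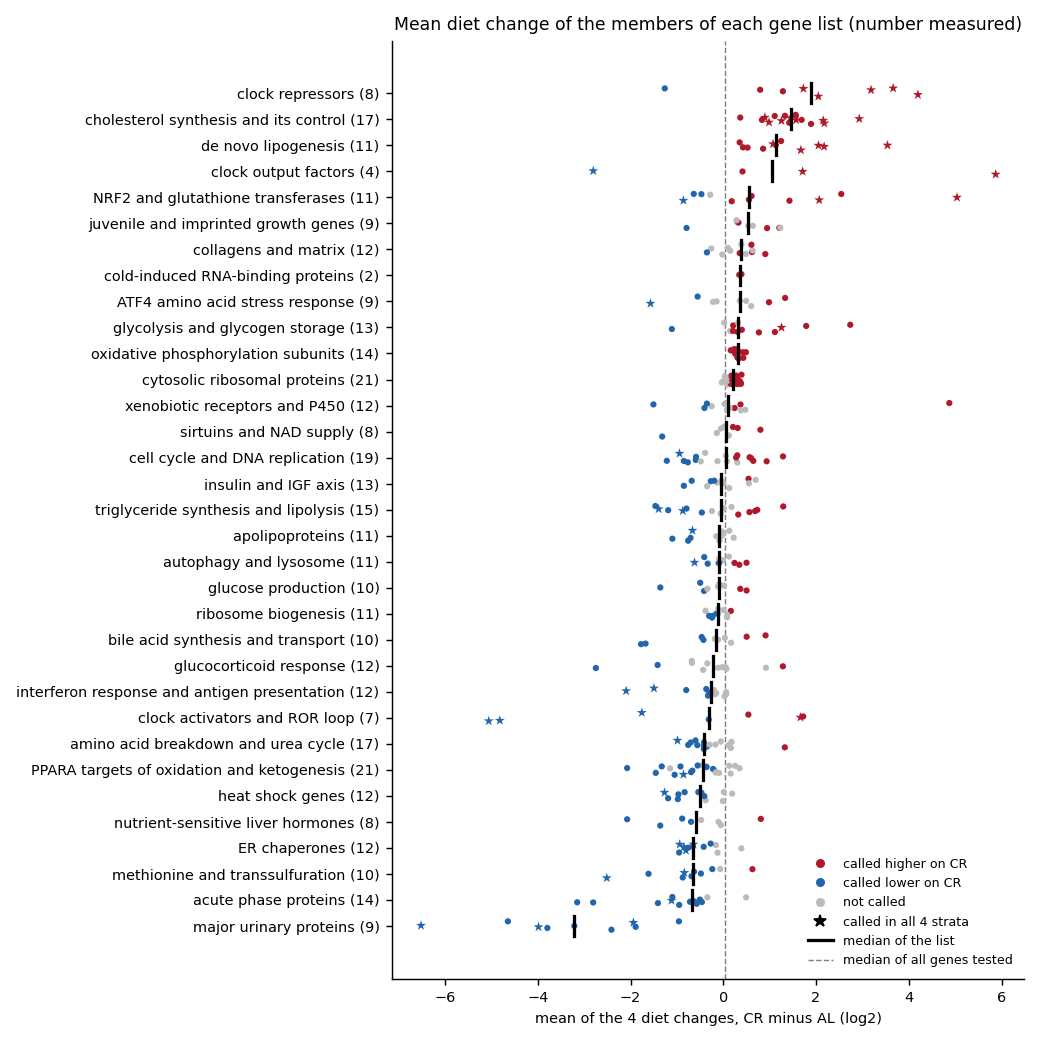
Mean of the 4 diet changes (CR minus AL, log2) of each measured member of the 33 gene lists, ordered by the list's median (black bar). Red and blue mark genes called higher and lower in the mean contrast, grey those not called, stars those called in all 4 strata, and the dashed line the median of all genes (0.04). Clock repressors (1.89), cholesterol synthesis (1.45) and lipogenesis (1.13) have the highest medians and major urinary proteins (-3.21) the lowest.

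The evenness of the response was described by the range of the 4 stratum changes relative to their mean, among shared genes of at least 2-fold without overlap in any stratum. The most even higher genes were Wipf3, a regulator of actin assembly (1.07 ± 0.08, strata 0.99 to 1.20), Hook2, a linker of cargo to microtubules (1.03 ± 0.07), and Eef2k, the kinase that slows translation elongation (1.22 ± 0.09). Eef2k had 195 to 456 normalized counts on AL and 501 to 1298 on CR. The most even lower genes were Sdc1 (-1.01 ± 0.10, strata -1.04 to -0.98), Rsad2 (-2.09 ± 0.16) and Mrap, an accessory protein of melanocortin receptors (-1.09 ± 0.09). Sdc1 had 8007 to 16527 on AL and 3614 to 7968 on CR, so its highest CR liver lay just below its lowest AL liver.

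Whether the size of the change differed between strata was tested by interactions. Diet by sex was called for 423 of 13776 genes (3.07%), and 41 of the 525 shared genes were among them. The change was larger in males for 36 of those 41 and in females for 5. Among the genes with the largest changes, Rgs16 had a male minus female difference of 3.48 (adjusted p = 9.075e-05), Mup15 of -5.54 (adjusted p = 0.00243), Arntl of -1.44 (adjusted p = 0.0161) and Dbp of -1.84 (adjusted p = 0.0342). For Dbp the sexes were close in WT (6.42 in males, 7.06 in females) and apart in d3 (3.48 and 6.51). Across the 13776 genes the diet changes of WT and d3 males correlated at a Pearson r of 0.77, those of WT and d3 females at 0.55, and pairs across the sexes at 0.43 to 0.58. Genes are not independent, the strata share no liver, and these are descriptions. The genes called in opposite directions in different strata numbered 19, such as Cyp3a44, a female-biased P450, with 1.79 and 1.66 in males and -4.93 and -2.70 in females.

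Diet by genotype was called for 0 genes (0%) in limma and 0 in edgeR. At an unadjusted p under 0.05 it reached 690 of 13776 genes (5.01%), and the smallest adjusted p was 0.478 in limma and 0.241 in edgeR. None of the 525 shared genes was called. A missing call does not show that WT and d3 livers responded alike. For Dbp the difference of d3 minus WT change was -1.74 ± 0.50 (log2 ± SE, adjusted p = 0.834).

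Cell type markers were read beside these results. Of 6 hepatocyte markers 5 were lower in the mean contrast (median -0.49), and their mean log2 level ran from 17.1 to 18.2 on AL and from 16.5 to 17.9 on CR. Of 10 Kupffer cell markers 8 were lower (median -0.50), among them Clec4f (-0.80 ± 0.14), the C-type lectin of Kupffer cells. Their summed level ran from 6183 to 13770 normalized counts on AL (median 10440) and from 3010 to 16330 on CR (median 6521). Whole tissue cannot tell fewer cells of a type from less RNA per cell. Of the lymphocyte markers 1 of 10 was lower, of the neutrophil markers 2 of 3, of the erythroid markers 2 of 6, and 0 of any of these was higher. Endothelial markers had 1 higher and 1 lower of 8, stellate markers 1 and 0 of 8, cholangiocyte markers 3 and 1 of 6, and pancreas and adipocyte markers 0 and 0 of 6 each. Beside these counts, 23.2% of all genes were called higher and 22.6% lower. Without the muscle-rich libraries 5 endothelial markers were higher and 0 lower, and stellate markers had 1 and 1. Then 3 hepatocyte, 7 Kupffer cell, 2 lymphocyte, 1 neutrophil and 1 erythroid markers were lower, and cholangiocyte counts were the same. No marker of any of the 11 lists was shared, while 1.22% of all genes were shared higher and 2.59% lower. The part of these markers in the shared response was not tested.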

How the data were processed

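Liver RNA of 40 mice was sequenced. The submitters' processing notes name FastQC, MultiQC, Trimmomatic, kallisto, DESeq2 and the build GRCm38, and the sources used here give no versions or settings. The authors deposited a normalized signal per gene, that is counts divided by a library factor, and 100% of values gave whole reads (tolerance 0.01) in every library, although in 2 libraries the step lay near 1. Of 17839 rows, 115 duplicates were dropped. Genes with a mean of at least 10 were tested with limma 3.58.1 in R 4.3.3 on log2(value + 1), with 8 groups in 1 fit and Benjamini-Hochberg adjustment over 13776 genes. The log2(value + 1) scale understates changes of low genes. edgeR 4.0.16 on the recovered reads was an alternative. On simulated counts with 200 changed genes, limma called 83% of those raised 2-fold in the mean contrast and 51% in all 4 strata, and 79% and 41% of those lowered 2-fold.

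Members, 33 gene lists, 11 marker lists and the naming rule were chosen with earlier results of these data known. Named genes are the 12 largest shared changes per direction (mean of at least 100, no overlap in any stratum), up to 4 shared and 2 unshared members of each list, the 3 most even genes per direction, and interaction genes. Genes with values outside that rule (Acss2, Cry1 and those under Other observations) were chosen after their values were seen. A few genes that meet it are not reported here. Replicate numbers follow record order and pair nothing, and separate mice are given only by the design text. Kallisto shares reads among near-identical transcripts, so single members of the Mup, Serpina1, Gsta, Cyp and Sult2a families are uncertain. The authors' table of genotype comparisons was not used here.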

Additional observations from a re-analysis of the deposited data

Results flagged for a closer look

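A liver was set aside for a closer look when its gap to the nearest of the other 4 in its group exceeded 0.71 of the group's range on the log2(value + 1) scale, which chance gives in about 1 in 20 groups. Of 96 groups tested, 8 held such a liver. In d3 AL male 5 Dbp had 73.71 normalized counts, where the others had 899 to 1138, and 5509 in d3 CR female 2, where the others had 6897 to 7077. Ciart was 586.6 in d3 AL male 2 (others 169.4 to 234.5) and 836.1 in d3 CR male 3 (others 1159 to 1306). Arntl was 147.8 in d3 CR female 2 (others 38.06 to 49.38). Mup15 was 0 in d3 CR female 5 (others 187.2 to 797.5), Mup17 was 266600 in WT AL male 3 (others 165600 to 187400), and Serpina1e was 225800 in d3 AL male 4 (others 426400 to 476300). Among these livers d3 CR female 2, d3 CR female 5 and d3 CR male 3 were muscle-rich, with mean log2 marker levels of 16.30, 12.64 and 11.31. The level of d3 CR female 2 was the highest of all livers, and the other flagged livers were not muscle-rich. Without d3 CR female 5 the mean change of Mup15 was -7.87, and without d3 AL male 5 that of Dbp was 5.68.

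The diet change differed between the sexes by limma's interaction test, given as male minus female on the log2 scale with the adjusted p. Of the 41 shared genes with such a difference, 6 were among the 12 given in full, namely Dbp (-1.84, adjusted p = 0.0342), Rgs16 (3.48, adjusted p = 9.075e-05), Mup15 (-5.54, adjusted p = 0.00243), Mup17 (-5.01, adjusted p = 1.751e-05), Serpina1e (-2.04, adjusted p = 0.0470) and Arntl (-1.44, adjusted p = 0.0161). For Dbp and Serpina1e the d3 males stood apart (3.48 and -9.26). In WT the sexes were close, at 6.42 in males and 7.06 in females for Dbp, and -5.61 and -5.82 for Serpina1e. Genes with larger differences were not shared. Lower in males were Moxd1 (-8.42), Mup7 (-6.32), Mup8 (-6.11), Mup14 (-5.76) and Sult2a3 (-5.60), and higher in males were Cyp2b9 (11.67), Cyp2a4 (7.96), Cyp2b13 (6.44) and Slc22a26 (5.59), with adjusted p from 8.189e-15 to 0.000299.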

How the results depend on the processing

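With library weights 265 genes were shared higher, 1100 had a diet by sex call and 4 a diet by genotype call. Without the 17 muscle-rich libraries 51 genes were shared higher, 83 shared lower and 131 had a diet by sex call, with 2 to 4 livers left a group. A 1.5-fold minimum left 1048 higher and 734 lower in the mean contrast and 177 shared lower, and with each stratum fitted alone 79 were shared higher and 176 lower, with 250 of those 255 among the 525. WT libraries numbered 34 to 60 alone gave 1139 higher and 1096 lower. Leaving out each library in turn gave 3005 to 3299 higher and 3005 to 3156 lower in the mean contrast, 131 to 173 shared higher, 300 to 394 shared lower, 331 to 627 diet by sex calls (627 without WT AL female 1) and 0 to 1 diet by genotype calls (1 without WT AL male 4 or d3 AL male 5). edgeR shared 493 of its 515 genes with the 525. For the 12 genes given in full, 588 of 588 refits kept direction and call. These genes were chosen for large changes without overlap in any stratum, so the refits had little room to alter a call. A pseudocount of 10, no filter, extra scaling, a muscle covariate and the additive model moved no count by over 1.5 times. With a 1.5-fold minimum the share called in the stratum left aside was 66.8% to 94.1%. No paired analysis was possible because replicate numbers only follow the order of the records. Npas2, Slc34a2, Gsta1 and Mup15 were at 0 reads in at least 1 liver. The liver at 0 for Mup15, d3 CR female 5, had the deepest library (44195300 reads).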

Other observations

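Genes outside the lists were also shared, and those named here were chosen after their values were seen. Several belong to the interferon response by textbook knowledge. Cmpk2, which supplies nucleotides beside Rsad2, changed by -1.71 ± 0.14 (log2 ± SE, limma adjusted p = 2.97e-12), from a mean of 350 to 102 normalized counts over 20 livers each. Oasl1 changed by -1.51 ± 0.17, Helz2 by -1.12 ± 0.08, Irgm1 by -0.81 ± 0.08 and Irf9, a subunit of the interferon-activated factor, by -0.74 ± 0.08.

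Among hormones, carriers and receptors, Serpina6, the corticosteroid-binding globulin, was higher by 2.00 ± 0.19 (adjusted p = 1.54e-10), from a mean of 4220.3 to 14541 normalized counts. Nrg4, a secreted ligand of ErbB receptors, was higher by 1.25 ± 0.15 and the cytokine Il15 by 1.59 ± 0.18. Serpina12 (vaspin) changed by -2.48 ± 0.22 and the melatonin receptor Mtnr1a by -2.19 ± 0.22. Flcn and Fnip2, partners that regulate mTORC1 and TFE3 at the lysosome, were both higher, by 0.85 ± 0.07 and 1.42 ± 0.10. All 12 genes of these paragraphs were called with the same sign in each of the 4 strata.

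Some genes known for fasting or inflammation were called in the mean contrast without being shared. Fgf21, a fasting hormone of the liver, changed by -2.07 ± 0.35 (adjusted p = 1.06e-05), with -3.18 in WT males and -0.65 in d3 females. Saa1, an acute phase protein, changed by -3.15 ± 0.51, with -4.78 and -5.23 in males and -1.67 and -0.91 in females. Pklr, liver pyruvate kinase, was higher by 1.79 ± 0.16, with 2.59 and 2.70 in males and 1.18 and 0.68 in females.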
